A study of Mus musculus with 4 samples.

Results

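HOXA5-FLAG peaks were examined at the 44 collagen chain genes of the mouse, out of 21775 protein-coding genes in the RefSeq table used. The members are all genes of the family by name, with no threshold on a measured value, although the family was picked with earlier results of these data known. The libraries came from lungs of E15.5 mouse embryos whose 2 endogenous Hoxa5 alleles carry a FLAG epitope (genotype Hoxa5FLAG/FLAG), and chromatin immunoprecipitation followed by sequencing was done with an antibody to FLAG. Peak lists of 2 immunoprecipitates were used, with 4289 peaks in replicate 1 and 2832 in replicate 2. The 2 input libraries share the genotype and were not analysed here, and no untagged lung was analysed either, so enrichment by the antibody and high background cannot be told apart at any peak. No label states that the replicates were separate litters or pools, whole lungs hold many cell types, and the peak lists carry no expression values against which the tissue label could be checked.

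Collagens are extracellular matrix proteins built from 3 chains wound into a triple helix. Fibrillar collagens form the tensile fibres of connective tissue, type IV collagens form the sheet of basement membranes, type VI collagens form beaded filaments around cells, fibril-associated collagens decorate fibres, and transmembrane collagens stay anchored in the cell surface. In the embryonic lung the interstitial collagens are made mainly by mesenchymal cells, and basement membranes separate the branching epithelium from the mesenchyme. HOXA5 is a homeodomain transcription factor that is expressed in the lung mesenchyme and is needed for the normal development of the airways and the lung.

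A peak was counted for a collagen gene when its summit, the position of highest enrichment, lay inside the gene's annotated span in mm10. A summit outside every protein-coding gene was counted when a collagen gene was the nearest one and lay within 100 kb. A shared peak is a pair of overlapping peaks, 1 from each list, both counted for the gene. The fold enrichments and −log10 q values printed were made by the authors' peak caller within each list, and lists were not compared by them. Median fold over all peaks was 3.87 in replicate 1 and 3.36 in replicate 2.

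Collagen genes with a HOXA5-FLAG peak shared by both libraries were spread over 5 of the 6 classes. Replicate 1 had a peak at 16 of the 44 genes (36.4%), where 10.4% of all protein-coding genes had one. Replicate 2 had a peak at 10 (22.7%), against 7.58% of all. A shared peak was found at 8 (18.2%), against 5.97% of all. These were Col5a2 and Col2a1 among the fibrillar genes, Col4a5 and Col18a1 among the basement membrane genes, Col6a3 of the beaded filaments, the fibril-associated Col14a1, and the transmembrane Col23a1 and Col25a1. Col1a1, Col3a1, Col24a1, Col4a2, Col4a3, Col6a1 and Col13a1 had peaks in replicate 1 alone, and Col6a4 had one in replicate 2 alone. Col8a1 had a peak in each list at different places. The other 27 genes had none in either list.

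**Figure D1:**
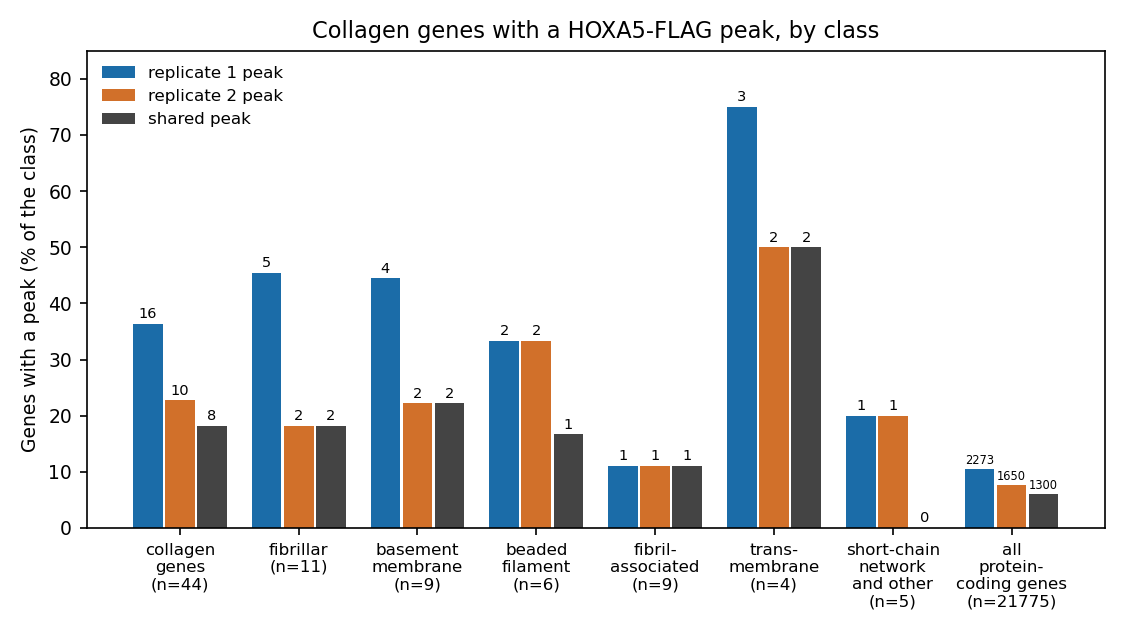
Percentage of collagen genes with a HOXA5-FLAG peak, for all 44 genes, each class and all protein-coding genes (horizontal axis, number of genes in brackets). Bars stand for a replicate 1 peak, a replicate 2 peak and a shared peak, with the number of genes printed above each bar. The transmembrane class reached 3 of 4 genes in replicate 1, and the fibril-associated class 1 of 9.

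Collagen genes are long, and long genes held peaks more often. The median annotated span was 114 kb for collagen genes and 17.2 kb for all protein-coding genes. Of the 8 collagen genes of 200 kb and over, 4 (50%) had a shared peak, and of all 989 protein-coding genes of that length 35.2% did. In the replicate 1 list 5 of these 8 had a peak, against 54.1% of all. Between 100 and 200 kb the counts were 2 of 18 (11.1%) for collagen genes against 15.1% of all, and 6 of 18 (33.3%) against 27.4% in replicate 1. Between 20 and 50 kb they were 1 of 11 (9.09%) against 4.47%, and 2 of 11 (18.2%) against 8.24% in replicate 1. The other bands held few collagen genes, with 1 of 3 between 50 and 100 kb (8.57% of all) and 0 of 4 below 20 kb (2.49% of all). In replicate 1 they held 1 of 3 (16.2% of all) and 2 of 4 (4.41% of all). With the rate of all genes in each band, 44 genes of these lengths would hold 6.38 with a shared peak, 8.06 with a replicate 2 peak and 10.8 with a replicate 1 peak, beside the 8, 10 and 16 observed. The shared and replicate 2 counts were thus near the background of genes of like length, and none of these differences was tested. Also, 15 of the 44 lie within 100 kb of another collagen gene and share its surroundings.

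**Figure D2:**
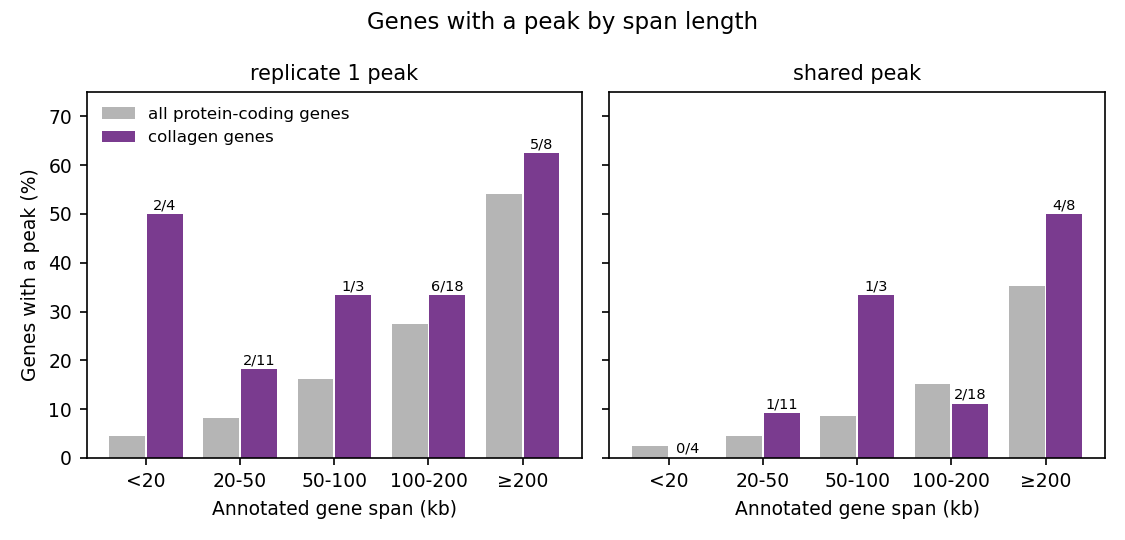
Percentage of genes with a replicate 1 peak (left) and with a shared peak (right) by annotated span in kb, for all protein-coding genes (grey) and collagen genes (purple, with the number of genes above each bar). Both series of bars are highest at 200 kb and over, where 35.2% of all genes and 4 of 8 collagen genes had a shared peak.

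In replicate 1, 30 peaks fell to collagen genes and 12 of them (40.0%, 95% Wilson interval 24.6 to 57.7) overlapped a replicate 2 peak, against 50.1% of all peaks counted for protein-coding genes (48.3 to 51.8). In replicate 2, 12 of 15 had a partner (80.0%, 54.8 to 93.0), against 77.1% (75.2 to 78.8). Both intervals of the collagen peaks hold the value of all genes. These intervals are wide and treat peaks of 1 gene as independent, which such peaks are not, so no difference was tested. Summits of the 12 shared peaks lay 1 to 84 bp apart, with a median of 29 bp. Inside the annotated spans lay 21 of the 30 replicate 1 peaks (70.0%, against 55.8% for all genes) and 12 of the 15 replicate 2 peaks (80.0%, against 54.3%). Collagen spans are longer (median 114 kb against 17.2 kb), and these shares were not matched for length. Of the 21, Col25a1 held 5, Col14a1 3 and Col23a1 3. Within collagen spans the in-span peaks came to 3.86 per Mb in replicate 1 and 2.20 in replicate 2. Within all protein-coding spans they came to 1.72 and 1.09, a difference that was not tested.

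**Figure D3:**
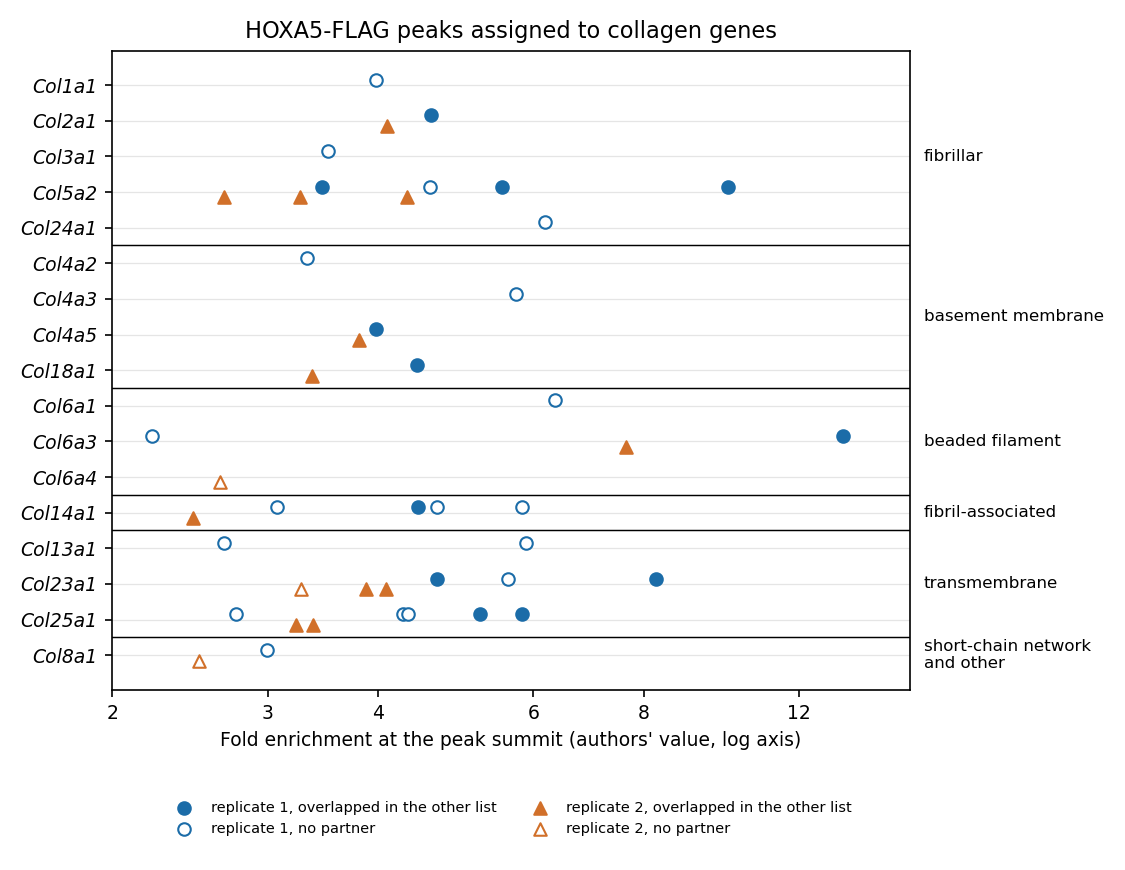
Fold enrichment at the summit (horizontal log axis, authors' values) of every peak counted for a collagen gene, by gene and class. Circles are replicate 1, triangles replicate 2, and filled symbols have an overlapping peak in the other list. Col6a3 carries the highest peak in both lists, at 13.5-fold and 7.63-fold, and Col5a2 the next in replicate 1, at 9.98-fold.

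Of the fibrillar genes, 5 of 11 had a peak in replicate 1 and 2 of 11 in replicate 2. The shares of all protein-coding genes, not matched for length, were 10.4% and 7.58%. Col5a2 had the most shared peaks of any collagen gene, with 3, a number that 0.23% of protein-coding genes of all lengths reached. It encodes the alpha-2 chain of type V collagen, a minor partner of type I collagen that sets fibril diameter. Its highest peak (chromosome 1, 45503009 to 45503401) was enriched 9.98-fold in the replicate 1 list and 4.31-fold in that of replicate 2. The summits lay 81 and 57 bp inside the higher-coordinate end of the gene's span (45374331 to 45503282), closer to a gene end than any other shared collagen peak. As background, Col5a2 is read towards lower coordinates, so that this end is its 5′ end. A second shared peak lay 6.12 kb inside the opposite end (45380114 to 45380827), with 5.52-fold and 2.68-fold enrichment. Its −log10 q in replicate 2 was 4.27, so it is not shared when at least 5 is required. Col5a2 then has 2 shared peaks, as many as Col23a1 and Col25a1, and the same holds with summits inside the span only. The third lay 38.9 kb beyond the higher-coordinate end (45541968 to 45542259), with 3.46-fold and 3.26-fold. A replicate 1 peak without a partner lay 94.3 kb beyond the same end (4.58-fold), the farthest that was counted.

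Col2a1, the main collagen of cartilage, which includes the rings of trachea and bronchi, held 1 shared peak. It lay at chromosome 15, 97996766 to 97997052, in a stretch where the predicted gene Gm46536 is also annotated. It was enriched 4.59-fold and 4.10-fold in the lists of replicates 1 and 2, and its summits were 68 bp apart.

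The other fibrillar genes with a peak had it in replicate 1 alone. Col1a1 and Col3a1 encode chains of the 2 most abundant interstitial collagens. The Col1a1 peak lay 39.4 kb outside the gene (3.98-fold) and the Col3a1 peak 35.2 kb upstream of its start (3.51-fold), so neither gene had a peak within its span. The shared peak inside Col5a2 at 45380114 to 45380827 also lies within 100 kb of Col3a1. It would count for Col3a1 if the nearest gene were not required. Col24a1, a fibrillar collagen known from bone, held a peak of 6.18-fold 116 kb downstream of its start (chromosome 3, 145408234 to 145408575). Col1a2, Col5a1, Col5a3, Col11a1, Col11a2 and Col27a1 had no peak in either list. Type I collagen is made of Col1a1 and Col1a2 chains, and so had a peak in 1 list at 1 of its 2 genes.

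Of the 9 basement membrane genes, 4 had a peak in replicate 1 and 2 in replicate 2, against 10.4% and 7.58% of all protein-coding genes. The median span of this class was 135 kb, and of all genes between 100 and 200 kb 27.4% and 19.6% had one. Col4a5, which encodes a type IV chain altered in Alport syndrome, held 1 shared peak (chromosome X, 141567506 to 141568558), 92.5 kb downstream of its start. Enrichment was 3.98-fold and 3.81-fold. At 1053 bp in replicate 1 it was the longest collagen peak, and it is lost when peaks are limited to 1000 bp.

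Col18a1 encodes type XVIII collagen, the precursor of endostatin, and has alternative starts that give a short and longer proteins. Its shared peak (chromosome 10, 77116561 to 77116890) was enriched 4.43-fold and 3.36-fold in the lists of replicates 1 and 2, with summits 5 bp apart. The summit lay 3.01 kb upstream of the inner start and 49.8 kb from the outer one. It was the nearest summit to any collagen start in the table of promoters.

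Of the type IV genes, Col4a3 held a replicate 1 peak of 5.73-fold (chromosome 1, 82597260 to 82597571), 10.6 kb from the start of Col4a4, which is transcribed away from it. Col4a3 chains occur in the basement membranes of the kidney glomerulus and the alveolus. Col4a2, which forms the widespread type IV network together with Col4a1, held a replicate 1 peak of 3.33-fold 107 kb downstream of its start. Col4a1, Col4a4, Col4a6, Col15a1 and Col7a1, the gene of anchoring fibrils, had none.

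Of the 6 beaded filament genes, Col6a3 carried the highest collagen peak of both lists. Col6a3 encodes the largest chain of type VI collagen. The peak lay outside the gene, at chromosome 1, 90876873 to 90877356, 33.1 kb upstream of the start. Enrichment was 13.5-fold in replicate 1, rank 121 of 4289 by fold, and 7.63-fold in replicate 2, rank 132 of 2832. The summits were 5 bp apart, and −log10 q in replicate 1 was 120.5. The next protein-coding gene, Mlph, lay 38.0 kb from the summit on the other side. A weak replicate 1 peak lay 76.1 kb on the other side of Col6a3 (2.22-fold, −log10 q of 2.14), with Cops8 at 77.4 kb.

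Col6a1 had a replicate 1 peak of 6.35-fold 24.6 kb beyond its 3′ end (chromosome 10, 76683965 to 76684401), which was the highest collagen peak without a partner. It falls within the predicted gene Gm35608, with Col6a2 60.5 kb away. Col6a4, of the later-described type VI chains, held a replicate 2 peak of 2.65-fold. Col6a2, Col6a5 and Col6a6 had none.

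The fibril-associated class had peaks at 1 of 9 genes (11.1%) in each list. Of all protein-coding genes, not matched for length, 10.4% (replicate 1) and 7.58% (replicate 2) had one. The median span of the class was 75.2 kb, and of all genes between 50 and 100 kb 16.2% and 10.3% had one. Col14a1, Col19a1 and Col22a1 span 213, 330 and 355 kb. Among all genes of 200 kb and over the shares were 54.1% and 43.1%, and the difference was not tested. Col14a1, whose product binds fibrils and limits their growth, had 4 replicate 1 peaks and 1 replicate 2 peak. The shared one (chromosome 15, 55355992 to 55356389) had 4.44-fold and 2.47-fold enrichment. Its −log10 q in replicate 2 was 4.35, so Col14a1 is lost when at least 5 is required. The higher replicate 1 peaks inside the gene, of 5.82-fold and 4.66-fold, had no partner, and the last lay 1.27 kb outside the span (3.07-fold). Col9a1, Col9a2, Col9a3, Col12a1, Col16a1, Col19a1, Col20a1 and Col22a1 had none. Col22a1, at 355 kb the second longest collagen gene, missed a shared peak by little. That peak was 3782 bp long in replicate 1 (4.50-fold and 4.01-fold) and its summits lay 100435 and 101152 bp away, just past the limit.

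The transmembrane class had a peak at 3 of 4 genes in replicate 1 and at 2 in replicate 2, against 10.4% and 7.58% of all protein-coding genes. Its median span of 218 kb was the longest of the classes. Col23a1 and Col25a1 span over 200 kb, and of all genes that long 54.1% had a replicate 1 peak and 43.1% a replicate 2 peak. Col23a1, a cell surface collagen, held 2 shared peaks. The first (chromosome 11, 51330091 to 51330641) had 8.27-fold and 4.09-fold enrichment, with summits 1 bp apart and 40.5 kb downstream of the start. The second lay 179 kb downstream (51468809 to 51469100) with 4.67-fold and 3.87-fold. A replicate 1 peak of 5.62-fold and a replicate 2 peak of 3.27-fold inside the gene had no partner, the latter close to the second shared peak.

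Col25a1 is the longest collagen gene, at 420 kb, and is known for its role in motor axon innervation of muscle. It held 5 replicate 1 peaks, of which 2 were shared. They lay 174 kb (chromosome 3, 130354403 to 130355370, 5.22-fold and 3.37-fold) and 388 kb downstream of its start (130568609 to 130569083, 5.82-fold and 3.23-fold). The 3 others ranged from 2.76-fold to 4.32-fold. At least 2 shared peaks, as at Col5a2, Col23a1 and Col25a1, were found at 0.918% of protein-coding genes of all lengths. These 3 collagen genes span 129, 294 and 420 kb, and the share among genes of like length was not computed. Col13a1, a transmembrane collagen of the neuromuscular junction, had 2 replicate 1 peaks, of 5.89-fold 45.1 kb upstream of its start and of 2.68-fold inside the gene. Col17a1, a hemidesmosome collagen of epithelia, had none.

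Among the remaining short-chain network and other genes, Col8a1, a collagen of vessel walls and the cornea, had a replicate 1 peak inside the gene (2.99-fold) and a replicate 2 peak 10.9 kb upstream of its start (2.51-fold). Col8a2, Col10a1, Col26a1 and Col28a1 had none.

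**Figure D4:**
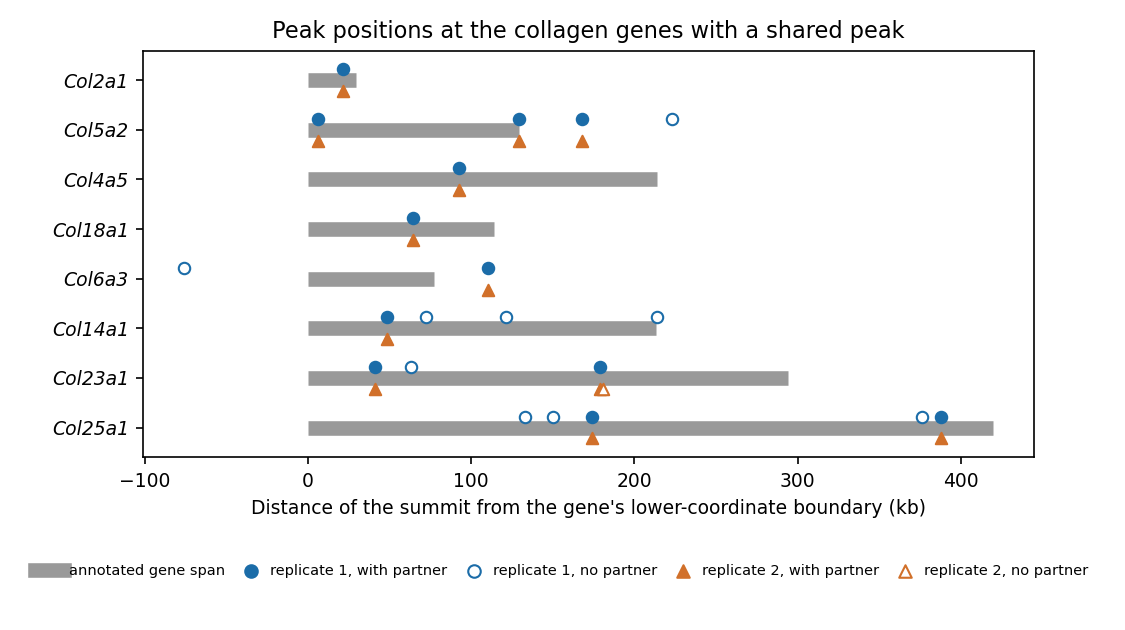
Position of each peak summit at the 8 collagen genes with a shared peak, as distance in kb from the lower-coordinate end of the annotated span (grey bar). Circles are replicate 1, triangles replicate 2, and filled symbols have a partner. Most filled symbols lie inside the spans, while the Col6a3 pair and 1 Col5a2 pair lie outside.

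None of the starts of collagen genes held a peak where a window was given. RefSeq windows of GRCm38.p6 (the mm10 build), from 250 bases before to 50 after a start, matched 35 of the 44 genes with 38 windows. No window overlapped a peak of either list, and over all 32851 windows 0.384% overlapped one in replicate 1 and 0.167% in replicate 2, so 0 of 38 is near the background. No window was given for Col5a2, whose highest peak spans an annotated gene end. The first window shown belongs to the start downstream of the highest collagen peak (Col6a3, chr1:90843922-90844221, minus strand). The next window is that of the start nearest to a shared peak among starts with a window (Col18a1, inner start, chr10:77113656-77113955, minus strand). The last window is that of the gene with most replicate 1 peaks (Col25a1, chr3:130180595-130180894, plus strand). Each is written 5′ to 3′ on the gene's strand, and capitals mark TAAT, the core bound by many homeodomains, or ATTA, its reverse complement.
Col6a3: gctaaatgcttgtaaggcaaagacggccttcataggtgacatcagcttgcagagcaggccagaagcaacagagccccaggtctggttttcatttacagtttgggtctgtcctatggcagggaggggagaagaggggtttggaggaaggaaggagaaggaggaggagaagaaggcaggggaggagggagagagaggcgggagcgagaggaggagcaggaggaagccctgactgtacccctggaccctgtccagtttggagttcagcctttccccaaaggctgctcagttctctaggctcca
Col18a1: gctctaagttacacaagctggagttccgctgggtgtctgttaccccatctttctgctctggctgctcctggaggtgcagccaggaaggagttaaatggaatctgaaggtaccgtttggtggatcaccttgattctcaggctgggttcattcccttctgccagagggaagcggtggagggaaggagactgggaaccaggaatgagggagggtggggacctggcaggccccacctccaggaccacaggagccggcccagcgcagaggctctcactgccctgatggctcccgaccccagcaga
Col25a1: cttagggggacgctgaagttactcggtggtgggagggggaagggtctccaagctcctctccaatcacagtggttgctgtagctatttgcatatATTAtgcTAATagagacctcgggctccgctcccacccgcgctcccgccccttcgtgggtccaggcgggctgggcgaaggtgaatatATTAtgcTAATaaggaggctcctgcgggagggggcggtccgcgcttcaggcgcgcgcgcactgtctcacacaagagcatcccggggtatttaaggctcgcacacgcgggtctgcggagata
The letters TAAT or ATTA were absent from the Col6a3 and Col18a1 windows and occurred 4 times in the Col25a1 window, as 2 copies of the same pair. On either strand they occurred in 13 of the 38 collagen windows (34.2%) and in 58.0% of all windows. The median GC content was 59.8% in collagen windows and 52.7% in all, and its part in that difference was not tested. TAATTA was found in 2 of the 38 (5.26%, against 5.29% of all), and TGATTNAT, a pattern of joint HOX and PBX binding, in 1 (2.63%, against 3.22%), both strands searched. TAATTA contains TAAT, so these counts overlap. The sequence under the peaks was not used here.

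Genes that act on collagens were counted from lists chosen beside the members, with earlier results of these data known. Among 32 genes of collagen biosynthesis and processing, 5 had a replicate 1 peak, 4 a replicate 2 peak and 4 (12.5%) a shared peak. The shares of all protein-coding genes were 10.4%, 7.58% and 5.97%. The median span of the list was 26.3 kb, and of all genes between 20 and 50 kb the shares were 8.24%, 5.95% and 4.47%. Shared peaks of the list lay inside Pcolce2, an enhancer of procollagen cleavage (4.89-fold and 3.18-fold), and inside Adamts2, a procollagen N-proteinase (3.73-fold and 3.54-fold). Plod2, a lysyl hydroxylase, had one 89.7 kb away (6.79-fold and 3.34-fold), and Loxl4, of the lysyl oxidase family that crosslinks collagen, one 36.6 kb away (2.33-fold and 2.70-fold).

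Of 10 collagen receptor genes, with a median span of 62.8 kb, 2 (20.0%) had a peak in each list and a shared peak, against 10.4%, 7.58% and 5.97% of all protein-coding genes. Of all genes between 50 and 100 kb, 16.2% had a replicate 1 peak, 10.3% a replicate 2 peak and 8.57% a shared one. Itga1 had 1 more peak in replicate 1, without a partner. The shared peak inside Itga1, the alpha subunit of a collagen-binding integrin, had 8.47-fold and 4.36-fold enrichment. That of Itgb1, its beta subunit, lay 44.6 kb away, was 1771 bp long and had 3.19-fold and 3.51-fold.

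Of 20 collagen-binding matrix genes, 7 had a replicate 1 peak, 5 a replicate 2 peak and 5 (25.0%) a shared peak. The shares of all protein-coding genes were 10.4%, 7.58% and 5.97%. The median span of this list was 23.6 kb, against 17.2 kb for all genes, and of all genes between 20 and 50 kb 8.24% had a replicate 1 peak and 4.47% a shared one. Nid1 and Nid2 encode nidogens, which link type IV collagen to laminin. A peak lay inside Nid1 (5.98-fold and 5.03-fold) and one 22.4 kb from Nid2 (11.4-fold and 4.97-fold). Prelp, a leucine-rich repeat protein of basement membranes, had one 30014 bp away, with 12.8-fold and 3.49-fold. Matn2 and Matn3 encode matrilins, of which Matn2 held 2 shared peaks, the higher of 7.40-fold and 3.53-fold. The Matn3 peak, of 2.99-fold and 3.06-fold, was 1071 bp long in replicate 1.

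None of 7 genes of collagen-degrading proteases had a shared peak, which is near the background of 5.97% of all genes and 2.49% of those under 20 kb (median span of the list, 10.9 kb). Mmp8 had a replicate 1 peak (5.09-fold, 12.8 kb away) and Mmp13 a replicate 2 peak (2.42-fold, 4.16 kb away).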

How the data were processed

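According to the labels, lungs were cross-linked for 10 min with 1% formaldehyde, sonicated to fragments averaging 200 to 500 bp, and 20 µg of chromatin was taken for the FLAG immunoprecipitation. Per the submitters' processing notes, the mm10 build was used with the programs MACS3 3.0.1, Bowtie2 2.5.2, Trim Galore, SAMtools 1.18, FastQC 0.12.1, deepTools and bedtools 2.31.0. For their settings and the peak caller's control, the sources used here give nothing. Each immunoprecipitate has its own list deposited by the authors, without pooling. The deposited lists give for each peak a ratio (fold enrichment at its summit) and −log10 p and −log10 q, with every −log10 q above 2. The deposited score was not used. Read counts are not part of these lists, so the depth is unknown, and a deeper library would pass more peaks. The sample titles carry wt although the genotype is the tagged allele, and peak names in the replicate 2 list carry another replicate number. The labels were followed.

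Genes came from the RefSeq table of GRCm38.p6 (49599 genes on assembled chromosomes, after leaving out starts below 3 Mb except on chromosome Y). All 44 collagen genes matched. Strand and starts came from the RefSeq promoter table. Peaks overlapping by at least 1 bp were called partners. Shares carry 95% Wilson intervals, for counting error only. The scripts used Python 3.11.15, pandas 2.3.3 and statsmodels 0.14.6, and the assignment was tested on simulated data. No test was made over the list. The members, classes and other lists were chosen with earlier results of these data known. Named are all members with a peak, and from the other lists all genes with a shared peak. Mmp8 and Mmp13 were named after their values were seen. The alternatives were the span alone, a limit of 10 kb, no need to be the nearest gene, a −log10 q of at least 5, peaks of at most 1000 bp, midpoints, 2 stricter overlaps and each replicate alone.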

Additional observations from a re-analysis of the deposited data

How the results depend on the processing

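Of 42 values under the alternatives, 40 stayed within 1.5 times the main count or, for the share of replicate 1 peaks with a partner, within its Wilson interval. Counting any peak within 100 kb, whichever gene was nearest, raised the collagen genes with a replicate 2 peak from 10 to 19, while the share of all protein-coding genes rose to 18.4%. With 1 replicate left out, the collagen genes with a peak numbered 10 (replicate 2 alone) and 16 (replicate 1 alone), beside 8 with a shared peak. The 16 was the other value outside these limits. Both counts repeat the main counts of each list and cannot fall below the shared count. Under the other settings the number with a shared peak was 7 to 12, and the share of all protein-coding genes moved with it, from 3.25% (7 collagen genes, summit inside the span) to 14.7% (12, any peak within 100 kb). Col6a3 was lost with summits inside the span only or a limit of 10 kb, Col14a1 with a −log10 q of at least 5, and Col4a5 with peaks of at most 1000 bp. All 8 remained with reciprocal overlap of 50% and with summits within 100 bp. No paired analysis was possible because only 1 group of libraries has peak lists and no test was made. The unknown depth of each library limits which weak peaks were called, and the inputs were not analysed here.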

Other observations

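Some peaks near collagen genes are counted for genes outside the family because they lie inside or closer to them. There were 11 such peaks in the 2 lists together, at 8 collagen genes, with each peak of an overlapping pair counted. Peaks counted for a neighbouring collagen gene are not among these 11. Col3a1 and Col4a6, for example, had a shared peak only when the nearest gene was not required. The highest lay inside Rhbdd1, 63.0 kb from Col4a4, at chromosome 1, 82385186 to 82385718. It was found in both lists, at 13.3-fold (replicate 1) and 8.55-fold (replicate 2), beside 13.5-fold and 7.63-fold for the Col6a3 peak. Another shared peak, nearer to Fam241b, lay 97.1 kb from Col13a1, with 6.09-fold and 3.65-fold enrichment. Another peak inside Rhbdd1, 73.2 kb from Col4a4, was found in replicate 1 alone, at 6.61-fold.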
